A study of Drosophila melanogaster with 4 samples.

Results

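The regions described here are the H3K18ac clusters of chromosome arm 3R in heads of adult *Drosophila melanogaster*. They are all records of the replicate set on sequence 3R with a score above 0, from the centromeric end of the arm to its tip. They number 1887 of the 8107 clusters of that list, and the same limits gave 1483 of 6380 clusters in ChIP replicate 1 and 1448 of 6248 in ChIP replicate 2. The study holds 2 ChIP libraries, made with a new lot of an antibody against H3K18ac, and 2 libraries of input chromatin that was not immunoprecipitated. All 4 come from wild-type Oregon-R flies (Oregon-R-modENCODE) of mixed adult stage, raised in population cages, whose heads were sieved from whole adults and crosslinked with formaldehyde. Sexes and ages were mixed. The labels tie each input to the region list of 1 ChIP replicate; how the authors used it for that list is not stated. Nothing in the labels separates the ChIP replicates by collection or cage, so their spread may be technical.

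H3K18ac is acetylation of lysine 18 on histone H3. In flies the enzyme that adds it is CBP, the product of the gene *nejire*, and active promoters and enhancers are where it is usually seen. Arm 3R is the right arm of chromosome 3, a large, mostly euchromatic arm that runs from its centromere at low coordinates to its telomere at high coordinates. It carries both homeotic gene complexes of the fly, whose genes set segment identity and are held silent by Polycomb group proteins outside their own body segments. A head is mostly brain, compound eye, fat body and muscle. All coordinates are FlyBase r5. No gene table of this build was used here, so clusters are given by position and the tissue label was not checked against marker genes.

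H3K18ac clusters took up much of 3R in each library: 7.89 Mb, or 28.3%, in replicate 1 and 7.18 Mb, or 25.7%, in replicate 2 of an arm of 27.9 Mb. The mean was 27.0% ± 1.79 (SD, n = 2). In the replicate set, a list made from both libraries, they covered 10.2 Mb, or 36.4%. Read numbers are unknown, so no counting interval could be given, and a deeper list can hold more and weaker clusters. The set had 67.6 clusters per Mb of the arm, where replicate 1 had 53.1 and replicate 2 had 51.9. The unmarked space between neighbouring clusters had a median of 3264 bp in the set, where replicate 1 had 4265.5 bp and replicate 2 had 4623 bp. Many clusters lay close to another: 62.6% of the members, 1181 of 1887, were within 2 kb of another member. This is not particular to 3R. Gaps under 2 kb were 42.3% of the gaps between set clusters on 3R, beside 43.6% on 2L, 42.8% on 3L and 42.2% on the X.

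Next, 3R was set beside the arms most like it within the same library, so that both values come from the same reads and calls. The covered share of 3R exceeded that of 2L by 2.53 percentage points in replicate 1 and 2.40 in replicate 2. It exceeded that of 3L by 1.10 and 1.17 points, and that of the X by 3.52 and 1.26 points. Over whole arms the direction was thus the same in both libraries for each of these 3 arms. The mean difference of whole arms was 2.47 ± 0.0877 points from 2L, 1.13 ± 0.0459 points from 3L and 2.39 ± 1.60 points from the X (SD, n = 2). With the centromere-proximal 10% of each arm left out, the direction stayed the same only for 2L. Of the remaining part of 3R, replicate 1 clusters covered 28.5% and replicate 2 clusters 25.9%. The matching shares were 27.1% and 24.6% for 2L, 28.6% and 25.8% for 3L, and 26.4% and 26.1% for the X. There 3R was below 3L in replicate 1 only and below the X in replicate 2 only. With 2 libraries an exact two-sided sign-flip test cannot give a p below 0.5, so no difference between arms was tested. Of the clusters on the 5 large arms, 3R held 23.6% in the set and 23.5% in each replicate, and it makes up 23.4% of their length.

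Score is the authors' value for a region, on a scale that is not stated; it is used here to describe and rank clusters. The median score of the 3R clusters was 0.398 in the set, below the 0.599 of replicate 1 and the 0.568 of replicate 2. Medians of 3R and 2L differed by 0.00945 in replicate 1 and -0.00154 in replicate 2, a change of sign. Medians of 3R and 3L differed by 0.00216 and 0.00526. The mean difference was 0.00396 ± 0.00777 from 2L and 0.00371 ± 0.00219 from 3L (SD, n = 2). The SD of 0.0225 between the replicate medians of 3R is larger, but it includes the offset between libraries that differences within a library leave out. Against the X, the 3R median was lower, with a difference of -0.119 in replicate 1 and of -0.130 in replicate 2.

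The members were mostly short, with a tail of long domains that held the greater part of the marked sequence. In the set their width ran from 1001 bp to 115109 bp with a median of 2431 bp, and 25% were narrower than 1487 bp. Broad clusters of 10 kb or more numbered 262 in the set, beside 190 in replicate 1 and 164 in replicate 2. In the set they made up 13.9% of the 3R clusters, beside 12.8% of the clusters on all sequences. Of the marked bases of 3R they held 53.4% in the set, beside 47.4% in replicate 1 and 42.8% in replicate 2. This share was larger on 3R than on the X, by 10.2 percentage points in replicate 1 and 7.40 in replicate 2, and than on 2L, by 2.56 and 4.12 points. It was smaller than on 3L, with differences of -2.34 and -3.34 points.

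Wider members had higher scores, except among the narrowest clusters. Members of over 1300 and up to 2000 bp had the lowest median score, 0.310 (451 members). Those of up to 1300 bp had a median of 0.363 (337 members) and those of over 2000 and up to 5000 bp one of 0.414 (580 members). Above that, the median was 0.569 for over 5 and under 10 kb, 0.706 for 10 to 20 kb, 0.882 for 20 to 50 kb and 1.01 for the 10 members of over 50 kb. All 24 members with a score under 0.1 were between 1219 and 1939 bp wide. Clusters of a replicate's list share 1 library, and those of the set share both. Across the 3R clusters, width and score had a Spearman correlation of 0.722 in the set, while replicate 1 gave 0.827 and replicate 2 gave 0.804.

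**Figure D1:**
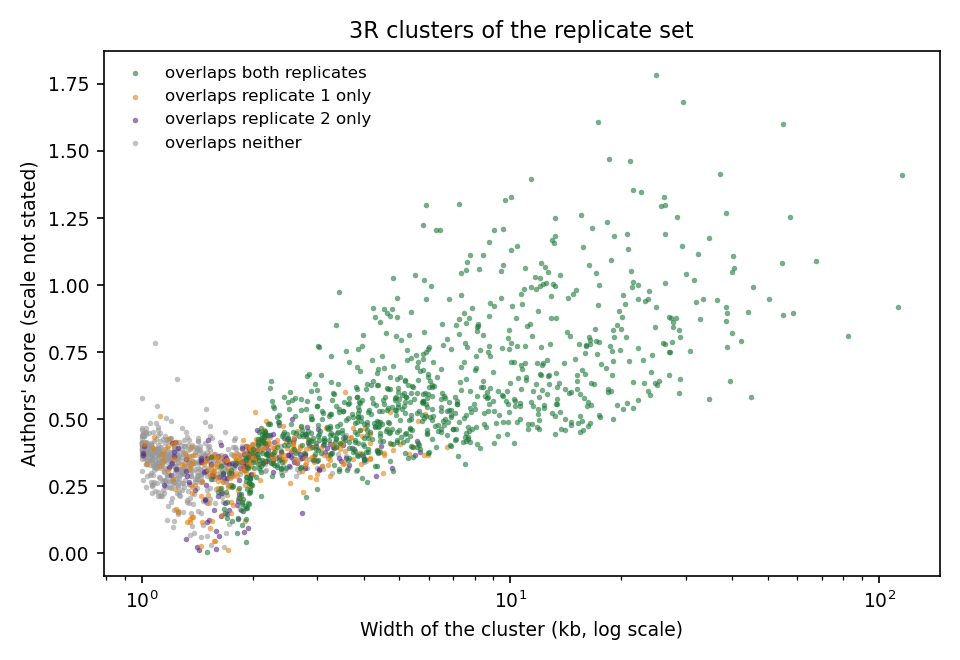
Width (kb, log scale) and authors' score (scale not stated) of the 1887 clusters of the replicate set on 3R, 1 point each, coloured by whether they overlap clusters of both replicates, of 1 replicate or of neither. The 581 clusters overlapping neither are no wider than 4073 bp, while every cluster of 10 kb or more overlaps both. These widths were not set beside those of other arms.

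The widest H3K18ac domain of the arm was 3R:5694794-5809902, 115 kb long. It was called as 1 cluster in each library, covered to 99.9% in replicate 1 and 99.5% in replicate 2, with scores of 1.53 and 1.33. The next, 3R:13720560-13832832, was 112 kb long and was covered to 95.3% in replicate 1, as 6 clusters, and to 94.7% in replicate 2, as 5 clusters. Its highest score was 1.05 in both libraries. So a pair of domains of like length differed in form, since only the first was unbroken in both libraries. The domain 3R:21341310-21423562, of 82.3 kb, consisted of 6 clusters in each replicate, with 92.7% and 88.3% of it covered. The domain 3R:17761888-17829128, of 67.2 kb, was 2 clusters in replicate 1 and 3 in replicate 2.

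The other 6 of the 10 widest were between 50.2 and 58.4 kb. They were 3R:19439722-19498146, 3R:26086614-26143976, 3R:12030814-12085752, 3R:10558252-10613098, 3R:898378-952882 and 3R:18889928-18940130. Of these, 3R:12030814-12085752 had the highest score of the 10 widest, 1.60 in the set, with 1.81 in replicate 1 and 1.54 in replicate 2. The domain 3R:898378-952882, in the first megabase of the arm, was filled completely (100%) by clusters of replicate 1 and to 99.0% by those of replicate 2, with scores of 1.21 and 1.16. Clusters of replicate 1 filled at least 91.6% of each of the 10, and those of replicate 2 at least 86.3%. The 10 were spread from 3.32% to 93.6% of the way along the arm.

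The 262 broad members were often divided within single libraries. Of these, 75 were 1 cluster in both replicates, 112 were several clusters in both, 54 were divided in replicate 2 only and 21 in replicate 1 only. None was missing from a replicate. Their median cover was 95.2% in replicate 1 and 88.7% in replicate 2, and 106 of them were covered to at least 90% in both. In 13 of them less than 50% was covered in at least 1 replicate. The least covered was 3R:19651110-19661720, of 10.6 kb, with 15.0% in replicate 1 and 73.0% in replicate 2. For these counts of broad members the shares over all sequences are not given here, so they mark nothing particular to 3R.

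The strongest member of the arm by score was 3R:5901910-5926708, of 24.8 kb, which scored 1.78 in the set, while replicate 1 gave 1.97 and replicate 2 gave 1.71. Next came 3R:5242876-5272208, of 29.3 kb, with 1.68, 1.84 and 1.59, and 3R:3930608-3947892, of 17.3 kb, with 1.61, 1.72 and 1.57. Among the 10 members of highest set score, these 3 held the same ranks in replicate 2. In replicate 1, the 54.9-kb domain 3R:12030814-12085752 came before the last of them. The other 6 were 3R:5163060-5181514, 3R:2243874-2264936, 3R:27243142-27280084, the 115-kb domain, 3R:16912488-16923890 and 3R:13523458-13544942, with set scores of 1.35 to 1.47. All 10 were broad, and 9 of them were 1 cluster in each library. Each had a higher score in replicate 1 than in replicate 2, as did 72.4% of the 3R clusters matched 1 to 1 between replicates. Of the 10, 6 lay in the centromere-proximal 25% of the arm. Among 10 bins of equal length from the centromere, bins 1, 2 and 3 held 162, 190 and 184 of the 1887 members. Of the 262 broad members they held 26, 18 and 30. Bin 3 extends past the 25% border, so these counts are no exact match to it. The 10 were picked by score, and their position was not tested. The widest domain and the clusters ranked 1, 2 and 5 by score all lie between 5163060 and 5926708.

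Clusters on 3R recurred at the same places in both libraries. Of the replicate 1 clusters, 1159 of 1483 (78.2%) overlapped a replicate 2 cluster by at least 1 bp, beside 78.7% over all sequences. Of the replicate 2 clusters, 1242 of 1448 (85.8%) overlapped one of replicate 1, beside 84.6% over all sequences. These shares are near those of the whole genome and mark nothing particular to 3R. The libraries had 6.37 Mb in common on the arm, and bases in both were 73.2% of the bases in either. Overlap by chance was not tested.

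The edges of matched clusters differed between the libraries. Among 724 clusters matched 1 to 1 between replicates, starts lay a median of 227 bp apart and ends 258.5 bp apart. Starts were within 500 bp of each other in 68.9% of the pairs, ends in 66.9% and both edges in 48.1%. In 45 pairs an edge differed by over 2 kb. Replicate 1 had the wider cluster in 65.9% of the pairs and the higher score in 72.4%. The median score difference, replicate 1 minus replicate 2, was 0.0697 (quartiles -0.0106 and 0.160). Across the pairs the Spearman correlation between libraries was 0.786 for score and 0.827 for width. The pairs leave out clusters that were divided or seen in 1 library.

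**Figure D2:**
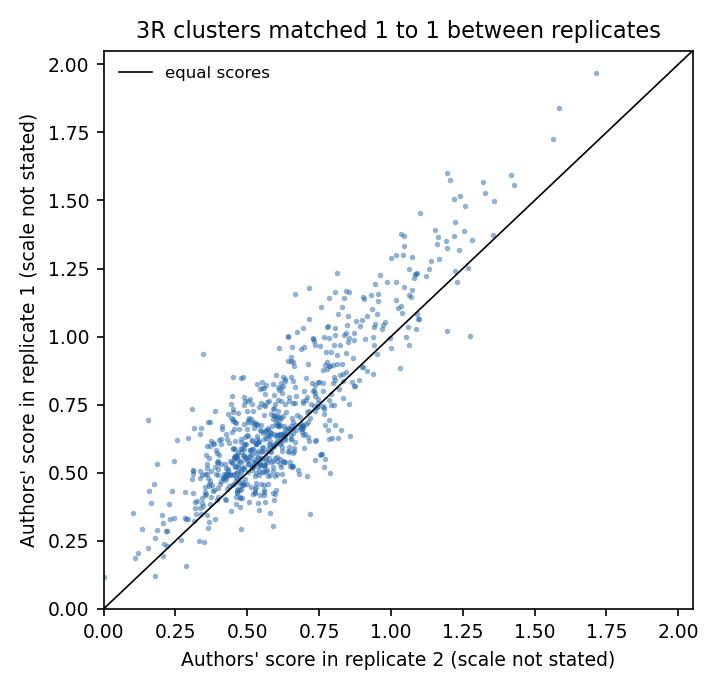
Authors' score in replicate 1 against replicate 2 (scale not stated) for the 724 clusters of 3R matched 1 to 1, with the line of equal scores. In 72.4% of the pairs the point lies above the line, where replicate 1 has the higher score.

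Clusters seen in 1 library only were shorter than shared clusters and had lower median scores. They numbered 324 in replicate 1, with a median width of 1706.5 bp against 3476 bp for shared clusters, and 206 in replicate 2, with 1610 bp against 3127.5 bp. Their median score was 0.517 in replicate 1, against 0.644 for shared clusters, and 0.485 in replicate 2, against 0.590. Not all were weak, since their highest scores were 0.889 in replicate 1 and 0.746 in replicate 2. Their part of the marked bases was 7.73% in replicate 1 and 5.02% in replicate 2, and none was broad. An overlap of 1 bp is easier to reach for a long cluster, so the rule itself bears on this contrast. The widest seen in replicate 1 only was 3R:25382013-25391294, of 9282 bp, which lay 383 bp from a replicate 2 cluster. It was followed by 3R:14618971-14624496, 3R:27110482-27115004, 3R:14958297-14962625 and 3R:26066978-26071245, of 4268 to 5526 bp.

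The widest seen in replicate 2 only was 3R:7780905-7785669, of 4765 bp, and the nearest replicate 1 cluster was 7215 bp away. The second, 3R:7133701-7138208, of 4508 bp, stood 27721 bp from any replicate 1 cluster, the farthest of these 10 regions. The remaining 3 were 3R:14544183-14548566, 3R:10226285-10229682 and 3R:8671050-8674309, of 3260 to 4384 bp. Set clusters filled at least 92.3% of each of the 10 regions, where their highest scores were 0.318 to 0.525.

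The replicate set held members with no counterpart in either library. Of its 1887 clusters on 3R, 902 overlapped clusters of both replicates and held 82.7% of its marked bases. Their median width was 5772 bp. Only replicate 1 had a counterpart for 248 and only replicate 2 for 156. For these groups the shares over all sequences are not given here, so their counts mark nothing particular to 3R. The last 581, or 30.8%, overlapped neither, beside 29.3% over all sequences, and held 8.23% of the bases. Of these 581, 304 were no wider than 1300 bp, under the 1301 bp of the narrowest cluster in the replicate lists. The share seen in both replicates was 0% up to 1300 bp, 12.2% for over 1300 to 2000 bp, 58.4% for over 2000 to 5000 bp and 95.7% for over 5 and under 10 kb. The highest score among the 581, picked out after the values were seen, was 0.783 at 3R:10988076-10989166, a cluster of 1091 bp that lay 4117 bp from the nearest replicate 1 cluster and 1676 bp from the nearest replicate 2 cluster.

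Where 1 cluster of the set matched 1 cluster in each library and no other (569 members), the set cluster was the widest of the 3 in 456, or 80.1%. The median width of these members was 4287 bp in the set, beside 3329 bp in replicate 1 and 2812 bp in replicate 2. Their median score was 0.535 in the set, beside 0.652 in replicate 1 and 0.583 in replicate 2. The set score was below both library scores in 332 of them. Widths and scores of the set therefore include any difference in how it was called.

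H3K18ac was unevenly spread along 3R. In 10 bins of equal length, counted from the centromere, mean coverage of the libraries was 25.0%, 20.4%, 30.1%, 27.4%, 19.2%, 31.2%, 31.5%, 28.6%, 28.9% and 27.9%. The lowest was bin 5, with 20.1% in replicate 1 and 18.3% in replicate 2, and the highest was bin 7, with 33.4% and 29.6%. Bin 5 also held 10 broad members of the set, where the other bins held 18 to 34. Median scores of the set members in the bins stayed between 0.385 and 0.413. Coverage was higher in replicate 1 in all 10 bins.

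**Figure D3:**
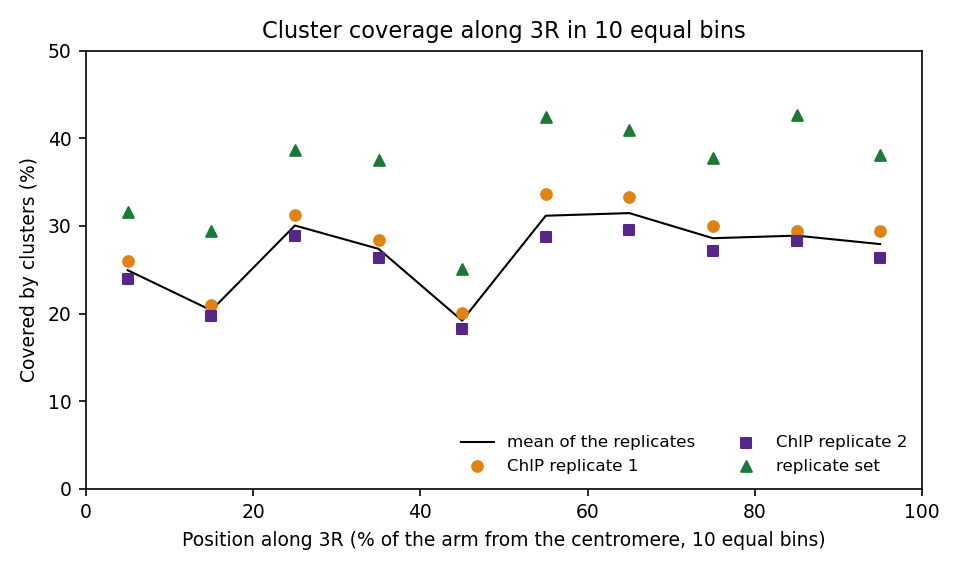
Share of 3R covered by clusters (%) in 10 bins of equal length, from the centromere (left) to the telomere (right), in replicate 1, replicate 2 and the replicate set; the line joins the means of the replicates. Bins 2 and 5 are lowest, with means of 20.4% and 19.2%.

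In windows of 500 kb, coverage ranged from 3.58% to 46.7% (mean of the libraries, 55 windows), with a median of 26.3%. The most covered were 3R:5500001-6000000, with 47.1% in replicate 1 and 46.4% in replicate 2, and 3R:10500001-11000000, with 47.6% and 43.9%. They were followed by 3R:14500001-15000000 (mean 45.8%), 3R:16500001-17000000 (45.0%) and 3R:22000001-22500000 (42.7%). The first of these holds both the widest and the strongest cluster of the arm. The least covered were 3R:2500001-3000000, with 3.82% in replicate 1 and 3.34% in replicate 2, and 3R:11000001-11500000, with 7.74% and 7.16%. Next were 3R:12500001-13000000 (mean 8.22%), 3R:20500001-21000000 (8.30%) and 3R:13000001-13500000 (11.7%). Marked and bare windows could adjoin, as the windows on either side of 11000001 did. Replicate 1 had the higher coverage in 46 windows and replicate 2 in 9, and the libraries' windows had a Pearson correlation of 0.977 and a Spearman correlation of 0.979.

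Marked sequence was also grouped into runs of clusters less than 2 kb apart. The longest run, 3R:5675626-5812216, was 137 kb long and was formed by the widest domain and its neighbours. The second, 3R:22575232-22688918, was of another kind: 10 clusters of the set over 114 kb, none wider than 44.0 kb. It was covered to 70.7% in replicate 1, by 16 clusters, and to 74.8% in replicate 2, by 20. The third, 3R:13719178-13832832, of 114 kb, was again almost wholly 1 domain. The run 3R:4898068-4985750 had 15 clusters with a median score of 0.386, and clusters of replicate 1 filled 55.7% and those of replicate 2 filled 47.2% of it. The run 3R:23583320-23670334 had 14 clusters with a median score of 0.409, and these shares were 42.1% and 57.4%.

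The arm held 14 stretches of over 100 kb without a cluster in any of the 3 lists, and the 2 longest were looked at closely. The longest was 3R:2470523-2899923, of 429 kb. The cluster-free interval around it was 429 kb in the set, shorter than the 479 kb of replicate 1 and the 478 kb of replicate 2. What shortened it in the set was 1 cluster of 1085 bp with a score of 0.327 that overlapped neither replicate. The second longest was 3R:12478503-12806331, of 328 kb, within free intervals of 352 kb in replicate 1 and 349 kb in replicate 2. Its lower edge was likewise set by a weak cluster of the set that overlapped neither replicate, of 1545 bp and a score of 0.0294. The third was much shorter, 3R:15053057-15235481 with 182 kb, followed by 3R:20704269-20874576 with 170 kb and 3R:6525417-6675333 with 150 kb.

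Clusters stood on both sides of the 2 longest stretches. In the 100 kb before the longest one 35.0% ± 3.57 of the sequence was covered, and in the 100 kb after it 17.9% ± 1.70 (SD, n = 2). Beside the second these shares were 13.9% ± 3.65 and 32.1% ± 0.738 (SD, n = 2). Both stretches together make up 757 kb, or 2.71% of the arm. The longest lies across bins 1 and 2 and the second longest in bin 5, the least covered bin of the arm. No record marked as depleted lies in either, but the set had only 7 on the whole arm, so this says nothing about the stretches.

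**Figure D4:**
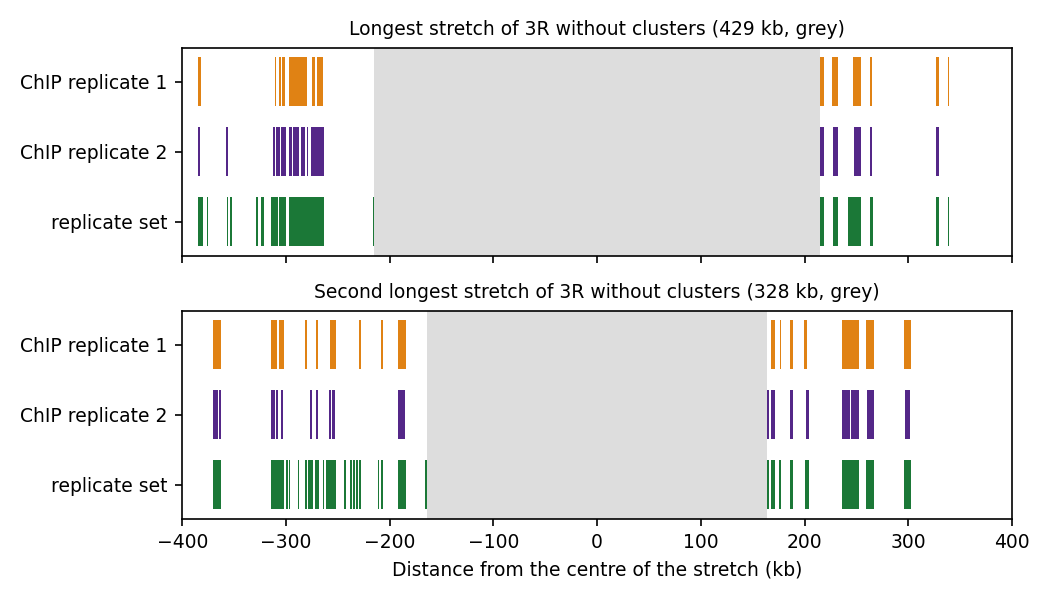
Clusters (bars) of replicate 1, replicate 2 and the replicate set within 400 kb of the centre of the 2 longest cluster-free stretches of 3R (grey; 429 kb above, 328 kb below), by distance from the centre (kb). Both stretches are empty in all 3 lists and have clusters on either side.

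The homeotic complexes are mentioned beside these stretches because the stretches had been seen. The Antennapedia complex holds *lab*, *pb*, *Dfd*, *Scr* and *Antp*, which act in head and anterior thoracic segments, and the bithorax complex holds *Ubx*, *abd-A* and *Abd-B*, which act in posterior thoracic and abdominal segments. The RefSeq gene table used for names (Release 6) places all 8 genes on 3R in this order from low coordinates. It belongs to another build than the clusters, so whether either stretch contains a complex was not tested. Mappability was not measured, and a stretch can lack clusters for want of mapped reads alone.

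Among the cluster-free stretches of the 5 large arms, the longest of 3R had rank 2 and the second longest of 3R had rank 5. Of the 10 longest, 7 were centred in the centromere-proximal 10% of their arm, including the first of 3R, at 9.62% of the arm. The second of 3R was centred at 45.3%, in the middle of the arm. With these 2 included, 14 stretches of 3R exceeded 100 kb, or 5.02 per 10 Mb, against 8.26 on 2L, 7.74 on 3L and 7.14 on the X. They made up 8.46% of 3R, against 13.2% of 2L, 12.9% of 3L and 10.2% of the X. These are single values over all 3 lists and were not tested.

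Next to its assembled centromeric end, 3R had a larger covered share than 2L, 3L and the X over the first 1000 kb. Arm 2R was not set beside 3R here. In the 1000 kb next to that end, 31.4% of 3R was covered in replicate 1 and 29.6% in replicate 2. The same length held 2.90% and 3.16% on 2L, 0.758% and 0.848% on 3L and 2.93% and 3.12% on the X. Values of 3R and of these 3 arms did not overlap, and the gap was far larger than the spread between libraries (30.5% ± 1.31 on 3R, against 3.03% ± 0.181, 0.803% ± 0.0634 and 3.02% ± 0.139; SD, n = 2). In the first 500 kb the mean was 21.5% ± 1.50 on 3R, against 2.22% ± 0.148 on 2L, 0.811% ± 0.0964 on 3L and 3.09% ± 0.0899 on the X. In the first 100 kb the mean was 3.98% ± 0.396 on 3R, against 4.74% ± 0.533 on 2L, 2.13% ± 0.142 on 3L and 5.15% ± 1.48 on the X. There 3R was above 3L and below 2L in both libraries, and its values overlapped those of the X. In the set, 3R had 10.1% of those 100 kb covered, against 5.22% on 2L, 2.21% on 3L and 8.70% on the X.

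**Figure D5:**
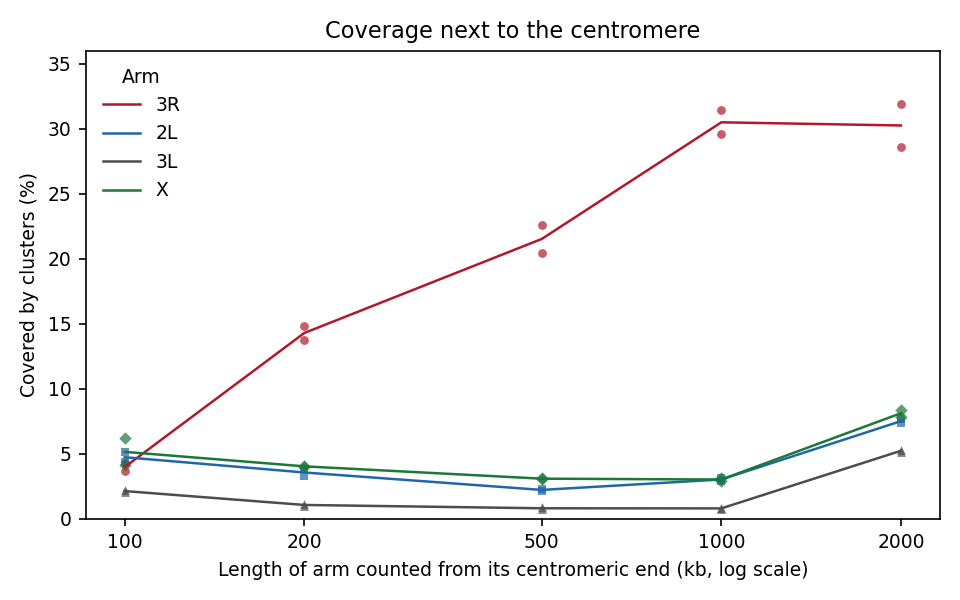
Share covered by clusters (%) of the part of each arm next to its centromeric end, against the length of that part (kb, log scale), for 3R, 2L, 3L and X; points are the 2 replicates and lines join their means. At 1000 kb the points of 3R lie at 31.4% and 29.6%, and those of 2L, 3L and the X at or below 3.16%.

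The first megabase of 3R held 62 clusters of the set, 43 of replicate 1 and 50 of replicate 2. Of these 10, 9 and 9 were broad. The median score in it was 0.681 in replicate 1, against 0.599 over the arm, and 0.567 in replicate 2, against 0.568 over the arm. The first cluster of the set began 3 bp from the end of the sequence, and that of replicate 2 began 228 bp from it. In replicate 1 the first cluster began 60773 bp from the end, farther than on 2L (41908 bp), 3L (11826 bp) and the X (6683 bp). In replicate 2 and in the set it was nearer than on those arms, where the distance was 6705 bp or more. At the other end of the arm, the last cluster of the set ended 10857 bp from the tip, that of replicate 1 112131 bp and that of replicate 2 63439 bp from it.

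For the centromere-proximal 10% of the arm, coverage was 0.916 ± 0.00656 times that of the rest on 3R, against 0.497 ± 0.00984 on 2L, 0.505 ± 0.0152 on 3L and 0.372 ± 0.0119 on the X (SD, n = 2). The longest cluster-free stretch reaches into this part with 320 kb, or 11.5% of it. Without that stretch the ratio on 3R was 1.03, and for the first 5% of the arm it was 1.21, so its direction depends on where the border is set. The heterochromatin of 3R assembled apart from the arm (3RHet, 2.52 Mb) had 0.499% of its length in clusters of replicate 1 and 0.537% in clusters of replicate 2. These shares were 0.877% and 1.56% on 3LHet (2.56 Mb), 1.32% and 1.19% on 2LHet (0.369 Mb) and 2.73% and 4.83% on XHet (0.204 Mb). Each of these 4 sequences held from 2 to 12 clusters per replicate. How far each assembled arm extends into heterochromatin was not tested.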

How the data were processed

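ChIP-seq of H3K18ac was done on 2 ChIP and 2 input libraries. Per the file headers, the deposited lists give regions on FlyBase r5, marked enriched or depleted, each with a score deposited by the authors, on a scale that is not stated. The submitters' processing notes list Bowtie 0.12.7 but do not say what it was used for. For the caller of the regions, the cut-offs, the number of reads and how the authors combined replicates into the set: not given in the sources used here.

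Records of 3R with a score above 0 were analysed in Python 3.11.15 with pandas 2.3.3, scipy 1.17.1 and numpy 2.4.6 and plotted in matplotlib 3.10.9. Overlap means at least 1 bp. Comparing scores between lists assumes that they share a scale. Counting of overlaps was checked on the 3R list of replicate 1 against a random part of that same list. Joining was checked on a small made-up list. With 1 group of 2 libraries, values are given as mean ± SD with no test, and depth is unknown. Setting 3R against 2L, 3L and the X within a library uses the sequence lengths in the headers.

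Regions named are the 10 widest and the 10 of highest score in the set, the 5 widest seen in each replicate only, the 5 longest cluster-free stretches, the 5 most and 5 least covered windows of 500 kb, the 5 longest runs and all depleted records. The members and rules were chosen with earlier results of these data known. Alternatives tried were score, width and overlap thresholds, joining of clusters under 500 bp apart, other borders of the proximal part, and single replicates. No sequence is shown, since no genome of this build was used here.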

Additional observations from a re-analysis of the deposited data

Results flagged for a closer look

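Depleted records were left out of the results above. On 3R there were 7 of them in the replicate set, of 18 on all sequences, and 0 in the replicate lists. They drew attention as a signal outside the enriched clusters. They were 1571 to 1773 bp wide, with scores from -0.0621 to -0.00312, and lay at 3R:1416996-1418644, 3R:10400540-10402270, 3R:11103294-11104890, 3R:12166608-12168292, 3R:17098392-17099962, 3R:17201888-17203554 and 3R:17850134-17851906. In 4 of the 7 places, 1 or both replicates had an enriched cluster. The region 3R:17201888-17203554 had one in both, with scores of 0.118 in replicate 1 and 0.00279 in replicate 2, the lowest scores of 3R in each list. The region 3R:12166608-12168292 had a cluster of score 0.162 in replicate 1. Replicate 2 had a cluster of score 0.0738 at 3R:1416996-1418644 and one of 0.0252 at 3R:10400540-10402270. The cause was not tested.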

How the results depend on the processing

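Of 40 alternative values for results on 3R, 19 stayed within the limit set for them, 19 moved and 2 reversed. This limit was 1.5 times for counts and no change at all for the widest domain. For others it was the replicate SD or a 95% binomial interval. With 2 libraries, a single replicate always lies within 1 replicate SD of the mean. Leaving out a replicate therefore could not move a result judged by that SD, and such values are no sign of stability. The binomial interval treats clusters as independent, though those of a list share its libraries, so staying or moving is only descriptive there. The reversals concern the proximal to rest coverage ratio of 0.916. It became 1.21 with a proximal part of 5% of the arm and 1.03 without the longest cluster-free stretch. Leaving out that stretch was chosen after seeing the data, as were leaving out the 2 longest stretches and a score of at least 0.1. The ratio was 0.807 with a part of 20%, 0.855 in the set and 0.987 for the 50% of clusters with the highest score. With that stricter score, the number of clusters became 659.5 per replicate (from 1465.5) and 834 in the set, the covered share 20.7%, the broad share of bases 58.5%, the replicate 2 clusters shared 83.7%, and the set clusters overlapping neither replicate 58 (from 581). In the set, the covered share was 36.4%, the broad share 53.4% and the median score 0.398 (from 0.584). Joining clusters under 500 bp apart gave a broad share of 53.8% (from 45.1%) and a widest domain of 134 kb, 3R:5675626-5809902. Broad taken as 5 kb gave 66.3% and as 20 kb 22.9%. Reciprocal overlap of at least 50% gave 58.4% of replicate 1 and 59.8% of replicate 2 clusters as shared. A minimum width equal to that of the narrowest replicate cluster left 277 overlapping neither, by construction. For changes that do not follow from how an alternative is built, the cause was not tested. Leaving out a replicate gave 1448 to 1483 clusters, 25.7% to 28.3% covered, a broad share of 42.8% to 47.4%, a median score of 0.568 to 0.599 and a proximal ratio of 0.912 to 0.921. No paired analysis was possible because replicate numbers are shared only between ChIP and input, and an input has no list of its own. Depth is unknown, so a weak or narrow region seen in 1 list cannot be called absent from another.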
